A study of Mus musculus with 2 samples.

Results

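The genes described here are 9 microRNA (miRNA) genes known from microglia and white blood cells: Mir142, Mir142b, Mir223, Mir146, Mir146b, Mir155, Mir21a, Mir150 and Mir342. They were chosen by gene name in the GENCODE M21 annotation, and are 9 of the 2202 miRNA genes in the files. Their levels were read in 2 small RNA libraries, labelled biological replicates 2 and 1, from tissue named as a layer of hippocampus. The mice were female B6CASTF1/J hybrids, a cross of the B6 and CAST strains, aged 18 to 20 months, and the labels name no treatment. RNA under 30 nt was sequenced. Both libraries belong to 1 group, so the only contrast is between the libraries. The labels give the libraries different animal numbers but the same donor record, so part of any difference may be technical.

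A miRNA is cut from a hairpin and guides silencing of messenger RNAs that pair with its seed, the bases from position 2 to position 8 at its 5′ end. Microglia are the resident macrophages of the brain. They arise from the blood lineage and share Mir142, Mir146 and Mir155 with other immune cells. Mir142 is active across blood cells, and Mir223 is best known from neutrophils and other myeloid cells. Mir146 and Mir155 are switched on by NF-kB signalling; miR-146a lowers Traf6 and Irak1 and so damps that signal, while miR-155 lowers Socs1 and so sustains it. Mir150 restrains Myb in lymphocytes. Mir21a is induced in inflammation and injury but is also made by many other cell types, reactive astrocytes among them. Mir342 is found in lymphocytes and other blood cells, and Mir146b is a relative of Mir146 at another locus.

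The mature miRNAs are shown because 2 pairs of them bear on how the reads were assigned: miR-146a-5p with miR-146b-5p, and miR-142a-3p with miR-142b. Sequences are from RefSeq, build GRCm38.p6, read 5′ to 3′, with the seed in capitals.
miR-142a-3p: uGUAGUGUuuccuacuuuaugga
miR-142a-5p: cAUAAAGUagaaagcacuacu
miR-142b: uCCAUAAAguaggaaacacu
miR-223-3p: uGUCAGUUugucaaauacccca
miR-146a-5p: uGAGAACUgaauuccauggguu
miR-146b-5p: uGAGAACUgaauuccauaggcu
miR-155-5p: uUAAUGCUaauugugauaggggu
miR-21a-5p: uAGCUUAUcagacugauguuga
miR-21c: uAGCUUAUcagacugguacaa
miR-342-3p: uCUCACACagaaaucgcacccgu
Among the 1679 mature mouse miRNAs in that table, the seed of miR-146a-5p is shared by miR-146b-5p alone, and that of miR-21a-5p by miR-21c alone. The other arms printed here share their seed with no other mature miRNA of the table. The pair miR-146a-5p and miR-146b-5p have the same base at 20 of 22 positions. Counted from 1 at the 5′ end, with the miR-146a-5p base first, they differ at G18A and U21C, and their first 17 bases are the same. Mir21c, whose product matches the first 15 bases of miR-21a-5p, had 0 counts in both libraries.

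The depth of sense counts over all miRNA genes was 4521208 for replicate 2 and 2255838 for replicate 1. Levels are counts scaled to a library sum of 1000000 (CPM), and a count of 0 allows up to 0.664 CPM in replicate 2, against 1.33 CPM in replicate 1 (3 counts each). Intervals for a single library are exact 95% Poisson intervals, and those of ratios are exact 95% binomial intervals. Both cover counting error only, since reads copied by PCR are not independent molecules. Unmapped reads made up 11.2% of replicate 2 and 29.0% of replicate 1. Reads fitting several places, 47.9% of replicate 2 and 36.2% of replicate 1, are in no gene's count. The 15 neuron-enriched miRNA genes set beside the members, led by Mir132, Mir128-1 and Mir137, summed to 55570 CPM in replicate 2, against 70476 CPM in replicate 1. Mir132 was at 18329 CPM in replicate 2, against 38949 CPM in replicate 1. Mir128-1 (14980 against 10436 CPM) and Mir137 (11969 against 10105 CPM) were higher in replicate 2. Of the 13 listed genes averaging at least 1 CPM, 6 were higher and 7 were lower in replicate 2. The 3 copies of Mir124a, whose reads fit several places, had 0 to 13 counts each. The files hold no messenger RNA, so microglial markers could not be read, and the cells that made these miRNAs were not tested. In bulk tissue, fewer cells of a type and less RNA per cell cannot be told apart.

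The 9 genes together were a small part of the profile. They took 0.530% of the counts in replicate 2 and 1.07% in replicate 1, which is 0.800% ± 0.382 (SD, n = 2). All but Mir142b reached 1 CPM in both libraries, as did 446 of all 2202 genes. The levels covered a wide range, with Mir21a at 3912 ± 2783 CPM, Mir342 at 2361 ± 1031 CPM, Mir150 at 788 ± 50.02 CPM and Mir146 at 750 ± 68.9 CPM. Mir142 followed at 136 ± 29.0 CPM, Mir155 at 34.1 ± 13.7 CPM, Mir223 at 14.1 ± 1.70 CPM and Mir146b at 8.64 ± 9.72 CPM (SD, n = 2 each). In this order, 3 pairs of neighbours had overlapping ranges over both libraries, namely Mir21a with Mir342, Mir150 with Mir146, and Mir223 with Mir146b. The last 2 of these pairs also changed places between the libraries. A read spans a short RNA, whatever the length of its hairpin, so levels were not divided by hairpin length. Doing so left the order as it was. Whether different miRNAs were captured equally well was not tested.

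**Figure D1:**
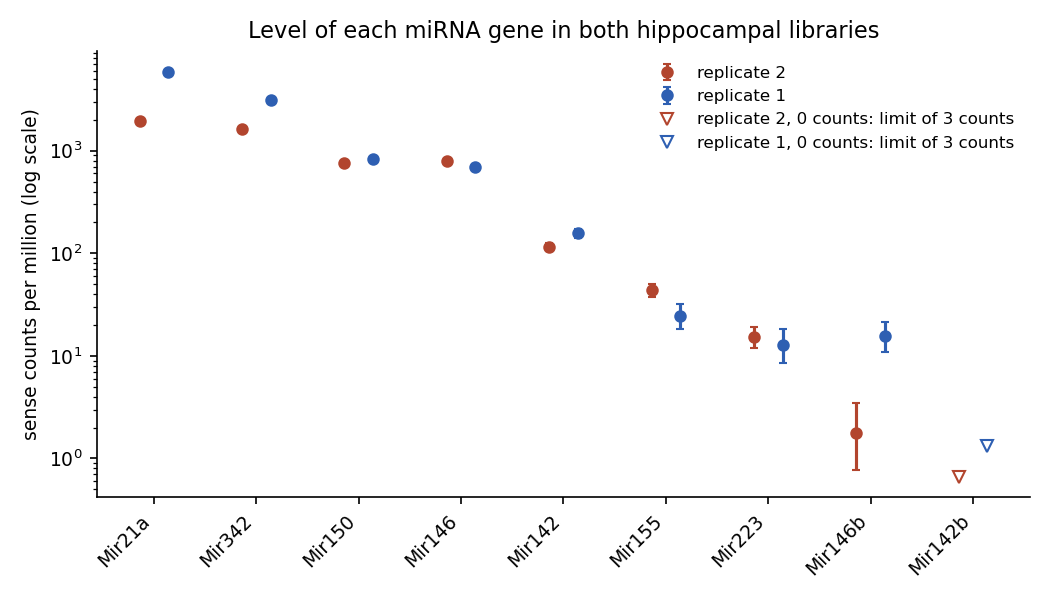
Level of each gene in sense CPM (log scale) in replicate 2 (left point of each pair) and replicate 1 (right point), with exact 95% Poisson intervals; open triangles mark the limit set by 3 counts where no count was found. Mir21a is at the top, Mir142b had no count, and Mir146b shows the widest gap between the libraries.

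**Figure D2:**
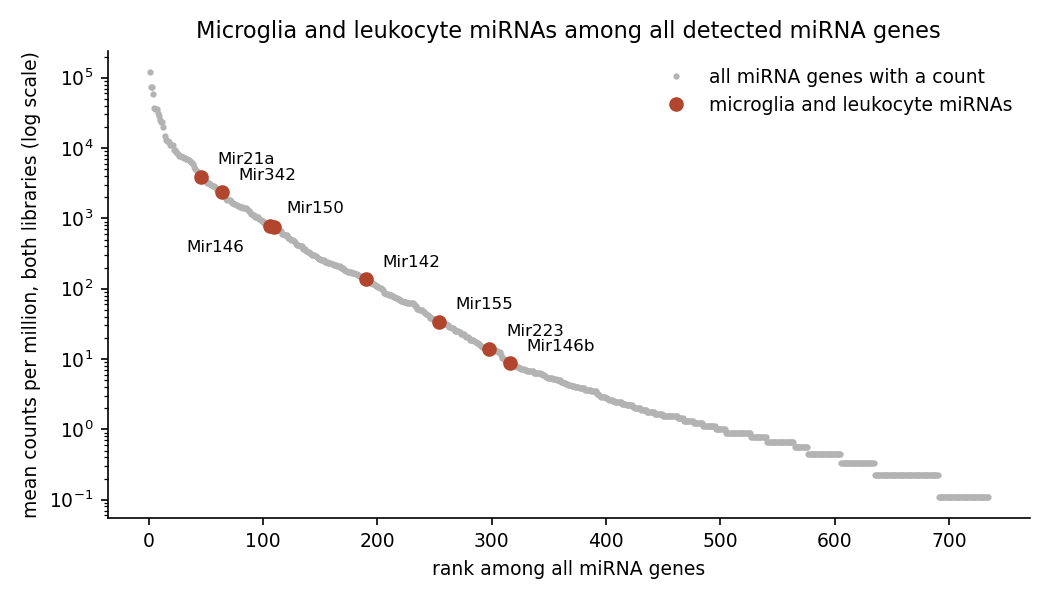
Mean level of every miRNA gene with a count (grey, log scale) against its rank, with the microglia and leukocyte miRNAs in red. They run from rank 46 for Mir21a to rank 316 for Mir146b.

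Between the libraries, Mir21a and Mir146b were lower in replicate 2, and the other members differed by less than 2-fold. Genes averaging at least 1 CPM were compared, which took in 8 of the 9 members. A gene was called when it differed at least 2-fold and the exact conditional binomial test passed at a Benjamini-Hochberg adjusted p under 0.05 over all 495 genes. Of the 8 members, 2 were lower in replicate 2 by this rule and 0 were higher, against 13.7% of all tested genes called lower, 3.84% called higher and 17.6% called in all. At 2 of 8 the members' share is read as near that background. The split of all called genes, 19 higher and 68 lower, depended on the scaling, with 26 and 51 by edgeR's TMM factors, 27 and 48 by DESeq2 size factors and 33 and 30 with all reads as the total. The test sets the reads of 2 libraries against each other and has no replicate check. With the spread between the libraries taken as the error in edgeR's exactTest, 0 members were called, at an adjusted p of 0.355 for Mir146b and 0.995 for Mir21a. That spread comes from the same 2 libraries that the test compares. It can therefore call few genes, 3 of all 495 here, and is no separate check of the calls. At an unadjusted p under 0.05 that test left 1 member, Mir146b.

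**Figure D3:**
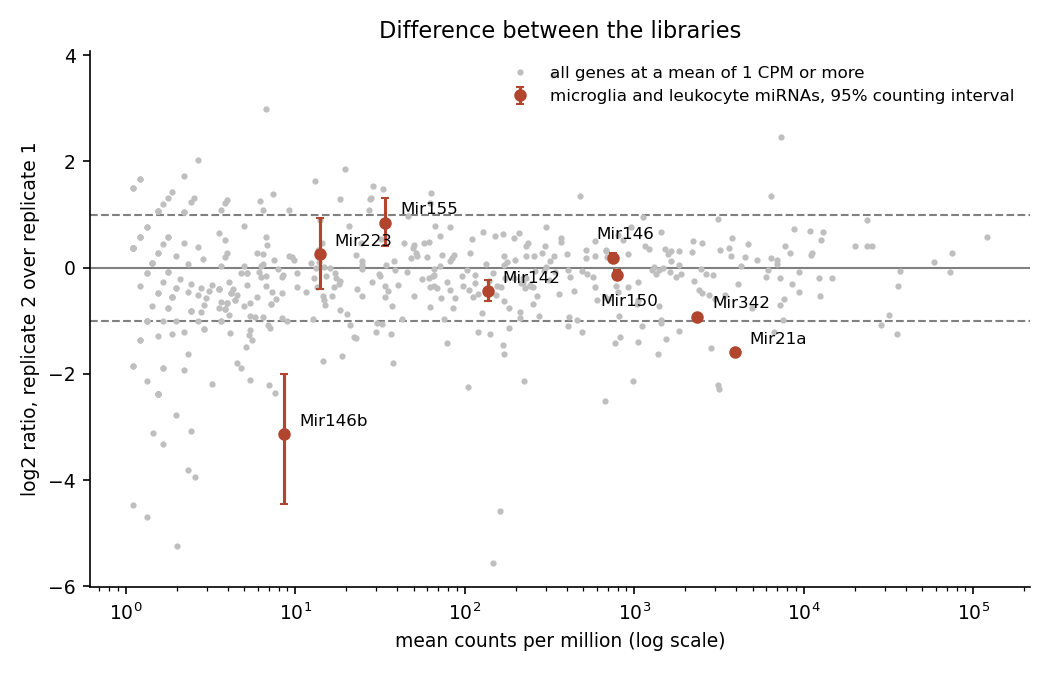
Log2 ratio of replicate 2 over replicate 1 against mean CPM (log scale) for all genes averaging at least 1 CPM (grey) and the microglia and leukocyte miRNAs (red, with exact 95% counting intervals); dashed lines mark 2-fold, and the members' ratios have no pseudocount. Mir21a and Mir146b lie below the lower line, and the other 6 lie between the lines.

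The median log2 ratio was -0.28 over the 8 members and -0.19 over all 495 genes, and the median absolute log2 ratio was 0.64 over the members and 0.51 over all genes. The 3 members above 0 were Mir155, Mir223 and Mir146, and the 5 below 0 were Mir146b, Mir21a, Mir342, Mir142 and Mir150, the last of which turned above 0 with DESeq2 size factors and with all reads as the total. Genes of 1 role differed among themselves. Of the 4 genes induced by inflammatory signalling, 2 were called lower, against 13.7% of all tested genes, and these are the same 2 calls as above. The log2 ratio was 0.84 for Mir155 and 0.19 for Mir146.

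Of the genes known from the myeloid lineage, Mir142 was clearly detected and Mir223 was scarce. Mir142 (ENSMUSG00000105196.1; mm10 chromosome 11, 87756864 to 87756927, plus strand) lies in an intron of the noncoding gene Mir142hg. It had 524 counts in replicate 2 (116 CPM, interval 106 to 126), and 354 counts in replicate 1 (157 CPM, interval 141 to 174). It was thus 1.35-fold lower in replicate 2 (1.18 to 1.55), and its rank hardly moved, at 187 in replicate 2 and 188 in replicate 1. The size of that difference depended on the scaling. The log2 ratio was -0.44 in CPM, -0.32 with TMM factors, -0.25 with DESeq2 size factors and -0.14 with all reads as the total. Mir223 (ENSMUSG00000076066.1; mm10 chromosome X, 96242817 to 96242926, plus strand) overlaps an exon of the noncoding gene F630028O10Rik. It had 69 counts in replicate 2 (15.3 CPM, interval 11.9 to 19.3), and 29 counts in replicate 1 (12.9 CPM, interval 8.61 to 18.5). The interval of its ratio, 0.759 to 1.90, spans a ratio of 1. Of 6 listed miRNA genes of liver and muscle, 4, Mir1a-1 among them, were at 0 in both libraries. Mir122 was at 43.1 CPM in replicate 2, against 14.6 CPM in replicate 1. It was called higher, against 3.84% of all tested genes. Mir206 was at 26.3 CPM in replicate 2, against 15.1 CPM in replicate 1, and was not called. Mir223 lay below both in each library, and where such low counts came from was not tested. Mir142 stood 7.59-fold above Mir223 in replicate 2 and 12.2-fold above it in replicate 1, in CPM.

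Mir142b, annotated on the other strand of the same place, had no sense count. It (ENSMUSG00000065420.2; chromosome 11, 87756841 to 87756955, minus strand) covers the whole Mir142 hairpin, and miR-142b pairs base for base with 20 bases of miR-142a-3p. Since no sense read was counted for Mir142b, Mir142 was set against the floor of 3 counts per library. Mir142 stood about 175-fold above that floor in replicate 2 and 118-fold above it in replicate 1. The reads counted antisense to Mir142b numbered 524 in replicate 2 and 354 in replicate 1, the same numbers as the sense counts of Mir142. Without strand, both genes were listed at 0 in both libraries.

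**Figure D4:**
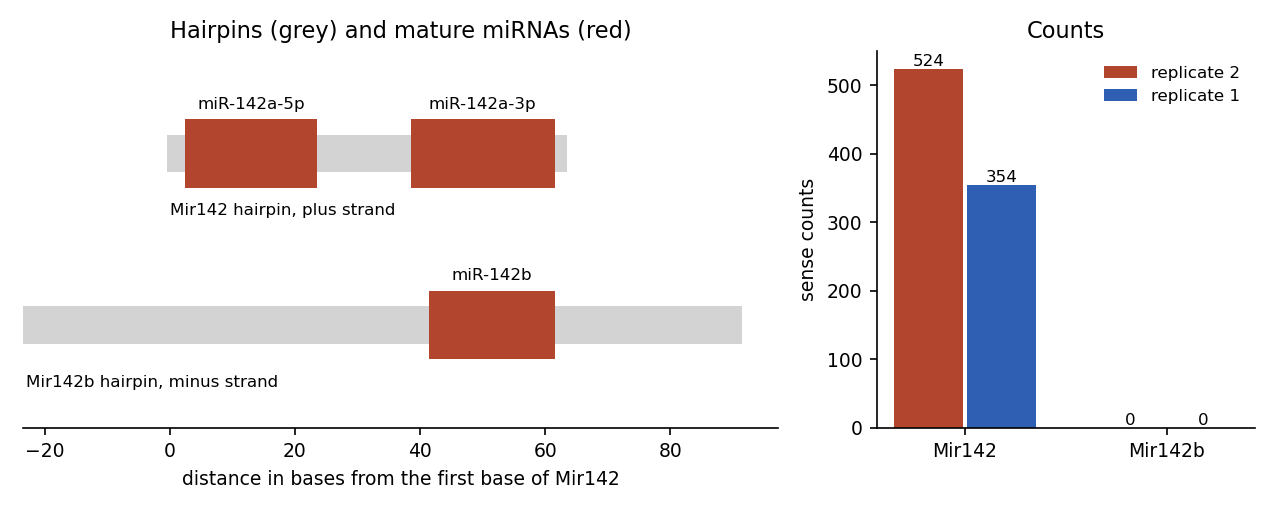
Left, the overlapping Mir142 and Mir142b hairpins (grey) and their mature miRNAs (red) to scale, in bases from the first base of Mir142. Right, sense counts in replicate 2 and replicate 1, which were 524 and 354 for Mir142 and 0 in both for Mir142b.

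Among the genes induced by inflammatory signalling, Mir146 stood at a similar level in both libraries, whereas Mir21a and Mir146b were lower in replicate 2. Mir146 (ENSMUSG00000065601.1; mm10 chromosome 11, 43374397 to 43374461, minus strand), which makes miR-146a, overlaps no other annotated gene. It had 3609 counts in replicate 2 (798 CPM, interval 772 to 825), and 1581 counts in replicate 1 (701 CPM, interval 667 to 736). In CPM, the 1.14-fold difference (1.07 to 1.21) is larger than counting error but among the smaller ones of the profile, since 81.0% of the 495 genes averaging at least 1 CPM differed at least as far. Its size depended on the scaling. The log2 ratio was 0.19 in CPM, 0.31 with TMM factors, 0.38 with DESeq2 size factors and 0.49 with all reads as the total.

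Mir146b, with the same seed, was far less abundant and went the other way. It (ENSMUSG00000070127.2; mm10 chromosome 19, 46342762 to 46342870, plus strand) lies in an intron of Mfsd13a. It had 8 counts in replicate 2 (1.77 CPM, interval 0.764 to 3.49), and 35 counts in replicate 1 (15.5 CPM, interval 10.8 to 21.6). It was 8.77-fold lower in replicate 2, with a wide interval of 4.00 to 21.9, and 2.42% of the genes differed at least as far. In replicate 2 there were 451 reads of Mir146 for each read of Mir146b, and in replicate 1 there were 45.2. The hairpins share a stretch of 20 bases, so shorter reads can fit both genes and be set aside as multimapping; both levels can be too low for that reason.

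Mir155 was scarce in both libraries. It (ENSMUSG00000065397.1; mm10 chromosome 16, 84714140 to 84714204, plus strand) overlaps an exon of the noncoding gene Mir155hg. It had 198 counts in replicate 2 (43.8 CPM, interval 37.9 to 50.3), and 55 counts in replicate 1 (24.4 CPM, interval 18.4 to 31.7). It was the member with the largest upward ratio, 1.80-fold higher in replicate 2 (1.33 to 2.47), and lay below the 2-fold threshold used here. That outcome depended on the scaling: with DESeq2 size factors its log2 ratio was 1.03, and with all reads as the total it was 1.14, both past the threshold.

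Mir21a was the most abundant of the 9 genes and made up most of the difference in their sum. It (ENSMUSG00000065455.1; mm10 chromosome 11, 86584067 to 86584158, minus strand) overlaps an exon of Vmp1, which encodes a membrane protein of autophagy. It had 8792 counts in replicate 2 (1945 CPM, interval 1904 to 1986), and 13264 counts in replicate 1 (5880 CPM, interval 5780 to 5981). It was 3.02-fold lower in replicate 2 (2.94 to 3.11) and fell to rank 64 there, against rank 39 in replicate 1. In CPM, 10.3% of the 495 genes averaging at least 1 CPM differed at least as far. Its log2 ratio was -1.60 in CPM, -1.47 with TMM factors, -1.40 with DESeq2 size factors and -1.29 with all reads as the total. Some miRNAs of choroid plexus and ependyma, which border the hippocampus, were lower in replicate 2 as well. The 7 listed genes summed to 1435 CPM in replicate 2, against 3124 CPM in replicate 1; none of them was at 0, and 4 of 7 were called lower, namely Mir34c, Mir34b, Mir429 and Mir200a, against 13.7% of all tested genes. Mir200b and Mir449a were not called and lay above 0, at log2 ratios of 0.12 and 0.20. Mir204, abundant in choroid plexus and also not called, was at 800 CPM in replicate 2, against 1034 CPM in replicate 1. Their part in the difference of Mir21a was not tested.

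The lymphocyte-linked genes Mir342 and Mir150 were both abundant, and Mir150 hardly differed. Mir150 (ENSMUSG00000065495.1; mm10 chromosome 7, 45121757 to 45121821, plus strand) overlaps no other annotated gene. It had 3402 counts in replicate 2 (752 CPM, interval 727 to 778), and 1857 counts in replicate 1 (823 CPM, interval 786 to 862). The difference was 1.09-fold (1.03 to 1.16), lower in replicate 2, and its direction turned with DESeq2 size factors, to a log2 ratio of 0.062, and with all reads as the total, to 0.17. Mir342 (ENSMUSG00000065436.1; mm10 chromosome 12, 108658620 to 108658718, plus strand) lies in an intron of Evl, which encodes an actin regulator. It had 7379 counts in replicate 2 (1632 CPM, interval 1595 to 1670), and 6970 counts in replicate 1 (3090 CPM, interval 3018 to 3163). In CPM it was 1.89-fold lower in replicate 2 (1.83 to 1.96), just under the threshold. Other scalings moved it further from the threshold. Its log2 ratio was -0.92 in CPM, -0.80 with TMM factors, -0.73 with DESeq2 size factors and -0.62 with all reads as the total.

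Blood left in the tissue can carry Mir142, Mir223 and Mir150, so red cell miRNAs are given beside them. The 4 erythroid genes summed to 136 CPM in replicate 2, against 138 CPM in replicate 1. Mir451a was at 71.0 CPM in replicate 2, against 105 CPM in replicate 1. Mir144 went the other way, with 48.9 CPM in replicate 2, against 17.3 CPM in replicate 1, and was called higher. Mir486 had 15.9 CPM in replicate 2 and 16.0 CPM in replicate 1, while Mir451b was at 0 in both. Mir142 stood 1.63-fold above Mir451a in replicate 2 and 1.49-fold above it in replicate 1. Mir150 stood 10.6-fold above Mir451a in replicate 2 and 7.84-fold above it in replicate 1. Mir223 stood below Mir451a, at 0.215 of its level in replicate 2 and 0.122 in replicate 1. How much of the members' counts came from blood was not tested. The 2 endothelial genes summed to 29026 CPM in replicate 2, against 21890 CPM in replicate 1, all of it Mir126a, since Mir126b was at 0 in both.

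Mir21a and Mir342 carried nearly all of the difference in the summed level. The sum of all 9 genes was 5304 CPM in replicate 2 and 10703 CPM in replicate 1. Mir21a made up 36.7% of it in replicate 2 and 54.9% in replicate 1, and Mir342 30.8% in replicate 2 and 28.9% in replicate 1. The other 7 genes, a group formed after the values were seen, took 0.173% of all counts in each library. On the log2 scale that sum differed by -0.0053, and by 0.12 with TMM factors, 0.19 with DESeq2 size factors and 0.30 with all reads as the total. The myeloid genes took 0.0131% of the counts in replicate 2 and 0.0170% in replicate 1.

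**Figure D5:**
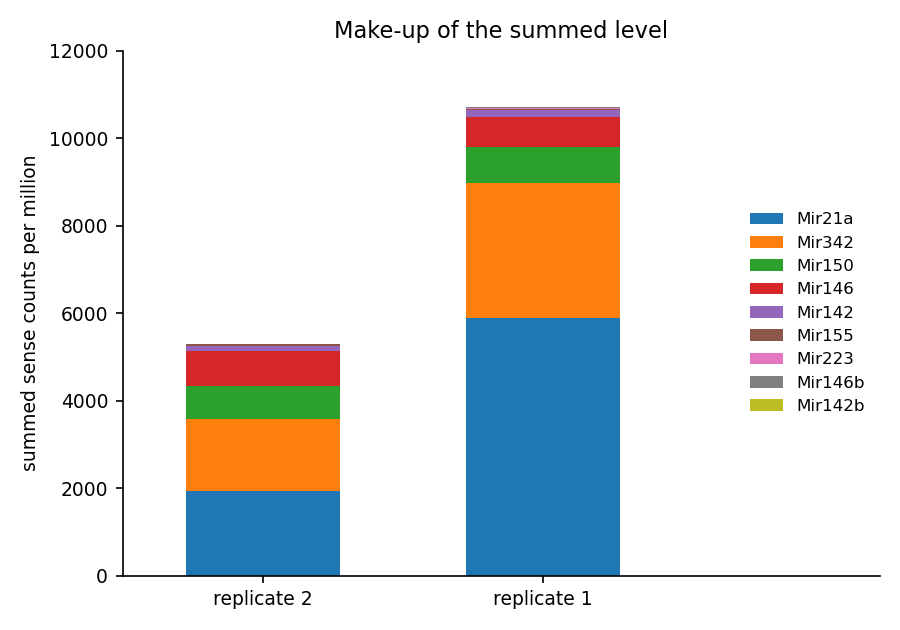
Summed sense CPM of the 9 genes in replicate 2 and replicate 1, stacked by gene. The sums are 5304 CPM in replicate 2, against 10703 CPM in replicate 1. The blocks of Mir21a and Mir342 account for most of the gap.

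A list of 31 other miRNAs described in innate or lymphocyte signalling had a larger sum than the 9 genes, at 88091 CPM in replicate 2, against 76036 CPM in replicate 1. Single genes of that list ranged from a mean of 1.11 CPM to 23574 CPM. They were called at 7 of 31, which is 22.6%, near the 17.6% of all tested genes. The list held 31 genes, all in the files, with 30 at 1 CPM or above in both libraries. Many are also made by neurons, glia or vessels. It was led by Mirlet7e at 26944 CPM in replicate 2, against 20203 CPM in replicate 1, by Mir125a at 15900 CPM in replicate 2, against 9945 CPM in replicate 1, and by Mir23a at 10910 CPM in replicate 2, against 6609 CPM in replicate 1. These 3 genes were not called. Of the 31 genes, 3 were called higher in replicate 2, against 3.84% of all tested genes, namely Mir99b (2.55-fold), Mir10a (2.47-fold) and Mir181b-1 (2.72-fold). The 4 called lower, against 13.7% of all tested genes, were Mir222 (4.90-fold), Mir187 (2.84-fold), Mir31 (2.48-fold) and Mir181a-2 (3.18-fold). Mir187, a miRNA induced by interleukin-10 in human monocytes, was at 1486 CPM in replicate 2, against 4221 CPM in replicate 1. The median log2 ratio of the list was -0.0040.

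By level in both libraries, the gene outside the 9 that lay nearest was Mir187 for Mir21a (0.62 log2 units apart), Mir107 for Mir342 (0.37), Mir431 for Mir150 (0.044) and Mir540 for Mir146 (0.17). For Mir142 it was Mir30b (0.15), for Mir155 Mir7j (0.22) and for Mir223 Mir5121 (0.093). These distances rest on 2 libraries only, in log2(CPM + 1).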

How the data were processed

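Small RNA was sequenced from 2 libraries of 1 group. The values are raw read counts for each miRNA gene, as the authors deposited them, with columns for unstranded, sense and antisense reads below 4 rows of totals. Reads were placed on mm10 with GENCODE M21 genes, per the deposited README files; which aligner and counter were used is not given in the sources used here. GENCODE M21 named all 2202 genes. The RefSeq table held the hairpins of 8 of the 9 genes, all at identical positions, and no hairpin for Mir150. Of Mir150 it gave only miR-150-3p, which is not printed here.

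Sense counts were divided by the gene sum without the 4 rows of totals and scaled to 1000000. The reference is that of the B6 strain, so CAST alleles that differ from it can lose reads, in both libraries. Hairpins are counted whole, so arms were not told apart.

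Genes averaging at least 1 CPM were compared between the libraries with the two-sided exact binomial test, conditional on the summed count, in SciPy 1.17.1, adjusted over all 495 genes; log2 ratios used a pseudocount of 0.5 counts. Alternatives used edgeR 4.0.16 (TMM, exactTest), DESeq2 1.42.0 size factors, other totals and minimums, unstranded counts and a pseudocount of 1 count. The binomial script was tested on simulated data that held counting error only and used the true totals. That test checks the code and does not cover the spread between real libraries. The text names every member, the called genes of each other list used here, its 3 genes of highest mean CPM, and for each member at 10 CPM or more the nearest other gene. Mir200b, Mir449a, Mir451b, the Mir124a copies, Mir21c and the place of Mir5121 were added after their values were seen. The members and lists were chosen with earlier results of these data known.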

Additional observations from a re-analysis of the deposited data

Results flagged for a closer look

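Reads antisense to Mir142b, outside the sense counts used for the levels, numbered 524 in replicate 2 and 354 in replicate 1, above the 3 counts that a count of 0 allows. Mir142 lies wholly within Mir142b on the other strand, so a sense read of Mir142 also counts as antisense to Mir142b. The sense counts of Mir142 were the same numbers, which leaves no other reads antisense to Mir142b. No other of the 9 genes had more than 1 antisense count in a library.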

How the results depend on the processing

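The share taken by the 9 genes, 0.800% of gene counts, was 0.859% in unstranded counts, where Mir142 is lost, 0.260% of all reads and 2.45% of the total without the 20 most abundant genes, the last 2 by the larger or smaller total itself. With either library left out it ran from 0.530% to 1.07%. The count of members called was 2, and was also 2 with TMM factors, without the 20 most abundant genes in the total, in unstranded counts and with no minimum level. It was 3 with DESeq2 size factors and with all reads as the total, where Mir155 was added; 1 at a minimum mean of 10 CPM, which leaves out Mir146b; and 0 with edgeR's exactTest. That test also called 0 of the 31 other immune-linked genes, against 7, and 3 of all genes, against 87. Its error is the spread between the same 2 libraries, so few calls were possible and it cannot decide on the others. At the minimum of 10 CPM, 53 of 310 genes were called. The log2 ratio of Mir150, -0.13, was 0.062 with DESeq2 size factors and 0.17 with all reads as the total. These scalings raise every log2 ratio by 0.19 and 0.30, and TMM factors by 0.12. No paired analysis was possible because both libraries belong to 1 group. Depth limits Mir146b, at 8 counts in replicate 2, and Mir142b, at 0.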

Other observations

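Of the 9 genes, Mir150 alone had a separate miRNA gene within 10 kb. Mir5121 lies 5097 bases from it and was at 14.4 CPM in replicate 2, against 13.3 CPM in replicate 1. Mir150 itself was at 752 CPM in replicate 2, against 823 CPM in replicate 1.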
